A study of Caenorhabditis elegans with 18 samples.

Results

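The loss of nrde-3 was examined in Caenorhabditis elegans embryos that had already lost set-25, by setting small RNA libraries of set-25;nrde-3 double mutants against those of set-25 single mutants. The alleles were set-25(n5021) on chromosome III and nrde-3(tm1116) on chromosome X. These 6 libraries, 3 of each genotype, were chosen by their labels from 18 libraries of 6 strains, and the set-25 mutation is shared by both groups. The other strains were nrde-3 with the same allele, met-2;nrde-3, met-2 with the allele met-2(n4256) on chromosome III and the wild type N2 (Bristol), also with 3 libraries each. All came from whole early embryos, younger than the bean stage, of worms grown for 60 to 65 h after the first larvae were synchronised. Reads had been counted in bins of 20 bp along build ce10, with both strands together, and were summed here to windows of 1 kb on a fixed grid. The deposited table covers chromosome I and the first 5.9 Mb of chromosome II, and it names no genes, so windows are given by position alone.

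NRDE-3 is an Argonaute protein of somatic cells. It binds secondary small interfering RNAs, which RNA-dependent RNA polymerases copy from target transcripts in the cytoplasm, and with them it enters the nucleus and acts on nascent transcripts of the same genes. SET-25 is a histone methyltransferase that can trimethylate lysine 9 of histone H3 and that gathers at silent chromatin at the nuclear edge. The comparison asks which small RNAs depend on NRDE-3 where this methyltransferase is absent.

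The double mutant libraries held 4027213, 3999457 and 3515896 reads in the covered regions and the set-25 libraries 3644082, 4022919 and 3732718. Levels are CPM, counts scaled to a fixed library total, after scaling with TMM, which sets the bulk of windows equal between libraries. The genotypes were not checked in the reads, since set-25 and nrde-3 lie on chromosomes III and X, which were not analysed here. The labels speak of 2 independent biological replicates while each strain has libraries 1 to 3. The tests therefore weigh differences against variation among libraries that may in part be technical. Spearman correlations over windows were 0.933 to 0.944 among the double mutant libraries, 0.947 to 0.957 among the set-25 libraries and 0.919 to 0.934 between the groups, as a description. Among the other strains, met-2;nrde-3 replicates 1 and 2 stood apart, with reads in 5.76% and 7.19% of bins against 11.3% to 17.9% in the other 16 libraries. In the tests of the 2 compared genotypes they entered the shared estimate of spread, the filter on low counts and the joint TMM scaling. They also entered descriptions that use all 18 libraries or the 12 libraries of the other strains.

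Loss of nrde-3 from set-25 embryos was accompanied by deep falls at a limited set of loci and by shallower rises at a larger set. Of 10730 windows tested with edgeR, 205 were lower in the double mutant (1.91% of windows) and 405 were higher (3.77%), at an adjusted p under 0.05. The falls were larger: the median log2 change was -1.02 over the lower windows and 0.60 over the higher ones, against 0.01 over all windows tested. At least 2-fold changes numbered 108 falls (1.01%) and 77 rises (0.718%), and at least 4-fold changes numbered 25 and 6. The 3 libraries of one genotype lay wholly on one side of the other 3 in 204 of the lower and 401 of the higher windows. The same held for 10.6% of all windows tested in the downward and 14.1% in the upward direction. With met-2;nrde-3 replicates 1 and 2 out of the fit, 12090 windows were tested, 268 were lower and 686 higher, and the median change was 0.055.

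The balance of rises and falls depended on the scale. With library totals alone 153 windows were lower and 26 higher, the median of all windows then being -0.19, and with totals taken outside the right end of chromosome I 237 were lower and 253 higher. Counts also moved with 5 of the 6 libraries: without set-25;nrde-3 replicates 2 and 3 there were 115 and 112 lower and 222 and 226 higher windows. Without set-25 replicates 1, 2 and 3 there were 116, 120 and 132 lower and 240, 216 and 218 higher ones. Without set-25;nrde-3 replicate 1 the counts stayed closer, at 186 lower and 365 higher.

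**Figure D1:**
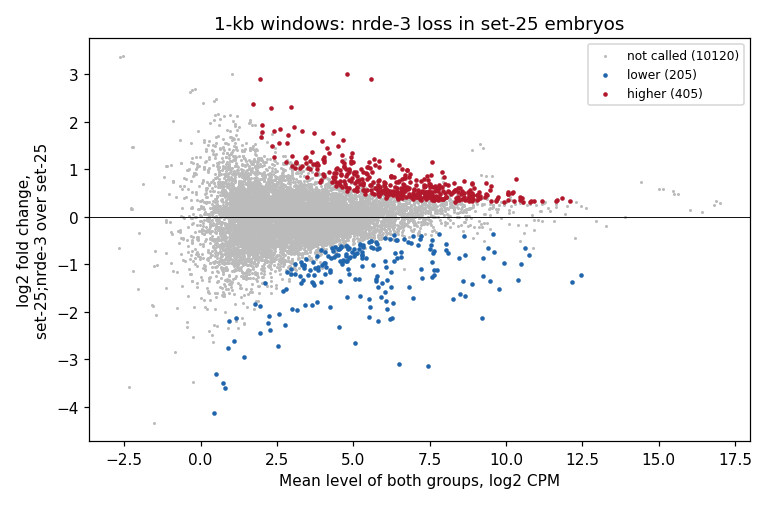
Each point is a 1-kb window, with the mean level of both genotypes on the horizontal axis (log2 CPM) and the log2 fold change of set-25;nrde-3 over set-25 on the vertical axis. The 205 lower windows (blue) reach down to -4.14, while the 405 higher windows (red) mostly lie under 1 and crowd at high levels.

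The largest fall among the windows that met the naming rule lay at II: 311017-312016. It held 38.3, 31.1 and 37.1 CPM in set-25;nrde-3 and 325, 333 and 283 CPM in set-25, a log2 change of -3.15 ± 0.27 (SE, adjusted p = 8.81e-09). The double mutant libraries lay close together and far below the single mutant ones. Of 29 bins tested in this window, 20 were called lower and none higher, and the mean level was lower in 45 of its 50 bins. The tallest bin, 320 bp from the window's start, held 8.40 ± 1.29 CPM in set-25;nrde-3 and 51.2 ± 5.93 CPM in set-25 (SD, n = 3). This bin was the tallest in both genotypes, but the next tallest in set-25, at 400 bp, held 1.74 ± 0.378 CPM in set-25;nrde-3 and 47.4 ± 10.1 CPM in set-25. The bins of this window therefore fell by unequal amounts. The window that follows it, II: 312017-313016, held 10.7, 7.07 and 5.63 CPM in the double mutant and 33.9, 46.6 and 34.6 CPM in set-25, a change of -2.33 ± 0.27 (adjusted p = 1.33e-06).

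**Figure D2:**
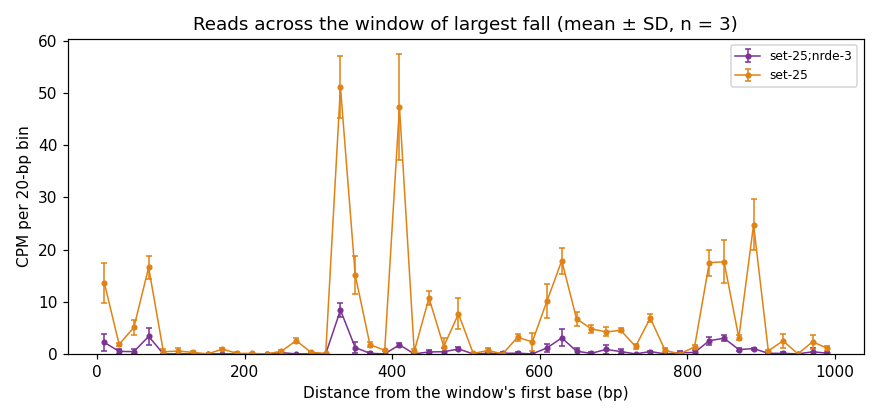
CPM in each 20-bp bin across II: 311017-312016, plotted by distance from the window's first base, as mean ± SD of 3 libraries for set-25;nrde-3 (purple) and set-25 (orange). At 320 bp, the tallest bin in both, the means were 8.40 and 51.2 CPM, and at 400 bp they were 1.74 and 47.4 CPM.

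A second deep fall lay in a window that was narrow in the other strains. The window at II: 2996017-2997016 had 23.1, 17.8 and 15.6 CPM in set-25;nrde-3 and 171, 155 and 157 CPM in set-25, a change of -3.11 ± 0.27 (adjusted p = 8.81e-09). In the 12 libraries of the other strains, 81.2% of its reads came from a single 20-bp bin. Of 4 bins tested in it, 3 were called lower. The window at I: 4684001-4685000 was narrower still in those 12 libraries, with 97.6% of reads in 1 bin. It held 13.2, 8.30 and 6.29 CPM in the double mutant and 55.5, 48.1 and 69.6 CPM in set-25 (change -2.67 ± 0.50, adjusted p = 9.33e-04). Its nrde-3 libraries were split, with 9.93, 7.09 and 69.1 CPM, beside 100.6, 61.1 and 48.6 CPM in N2. Nrde-3 replicate 3 stood at the N2 level there.

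Among called falls of at least 2-fold whose libraries did not overlap, the 4 most abundant windows lay on chromosome II. Lower windows that changed by less than 2-fold were not ranked. At II: 3306017-3307016 there were 3769, 3098 and 3178 CPM in set-25;nrde-3 and 7789, 8275 and 7315 CPM in set-25, a change of -1.22 ± 0.18 (adjusted p = 7.49e-05). At II: 1820017-1821016 there were 2690, 2503 and 2554 CPM in the double mutant and 7266, 6892 and 5908 CPM in set-25, a change of -1.37 ± 0.16 (adjusted p = 1.41e-06). Both windows were broad, with 24 of 33 and 24 of 36 tested bins called lower. Windows II: 2681017-2682016 and II: 2094017-2095016 had changes of -1.0 ± 0.15 and -1.33 ± 0.22, with 11 of 16 and 16 of 23 tested bins lower. Some of the loci that fell thus remained among the more abundant ones in the double mutant.

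Several falls came in neighbouring windows. At II: 2136017-2137016 and II: 2137017-2138016 the changes were -2.12 ± 0.17 and -2.13 ± 0.17, with 253, 191 and 227 CPM in the double mutant and 983, 1075 and 863 CPM in set-25 in the first. The window at II: 2095017-2096016, beside the abundant one named above, changed by -2.12 ± 0.21. Of the 205 lower windows, 105 lay in 41 runs of adjoining lower windows and 100 stood alone. The longest runs had 5 windows, at I from 842001 to 847000, from 9722001 to 9727000 and from 13408020 to 13413019.

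The other falls named lay mostly lower in level. The change was -2.19 ± 0.18 at I: 10913020-10914019, -2.15 ± 0.15 at II: 3374017-3375016 and -2.27 ± 0.45 at II: 3323017-3324016. At I: 7152001-7153000 and I: 10290020-10291019 it was -2.72 ± 0.43 and -1.96 ± 0.42 at 10.1 and 14.1 CPM in set-25. No bin of the first window passed the filter, so none could be called, and 1 of 3 tested bins of the second was called lower.

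Chromosome II held 73 of the 205 lower windows (35.6%) and 149 of the 405 higher ones (36.8%), beside 2699 of all 10730 tested (25.2%). Falls were densest between 3 and 4 Mb of chromosome II, where 25 of 400 windows fell and 21 rose. Between 1 and 2 Mb the order was the other way, with 17 of 545 falling and 48 rising. Nearer the centre few fell: 2 of 357 between 4 and 5 Mb and 1 of 383 beyond 5 Mb, while 13 and 12 rose. On chromosome I the stretch from 11 to 12 Mb had 18 falls and 34 rises among 509 windows.

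Fewer rises than falls could be seen in single bins. A called bin was found in 77 of the 205 lower windows but in only 40 of the 405 higher ones. Among single bins the balance was accordingly reversed, with 453 of 38100 lower (1.19%) and 77 higher (0.202%). Of the 453 lower bins 403 lay in windows called lower, and of the 77 higher bins 58 lay in windows called higher. Lower bins numbered 264, 280 and 294 without set-25;nrde-3 replicates 2 and 3 and set-25 replicate 2, and higher bins numbered 33, 31, 24, 18 and 27 without those double mutant libraries and without set-25 replicates 1, 2 and 3. The typical shape of the windows did not part the classes: in the 12 other libraries the top bin held a median of 21.5% of reads in lower, 21.3% in higher and 21.2% in all windows tested. Most calls fell among the 2683 windows of highest level, from 22.4 CPM upwards, namely 138 of the lower and 329 of the higher windows. Median changes there were -0.86 and 0.55, against -1.06 and 1.04 among called windows of the 2682 next below.

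The largest rises were adjoining windows on chromosome I. At I: 10630020-10631019 there were 39.1, 56.0 and 52.3 CPM in set-25;nrde-3 and 4.54, 8.07 and 5.21 CPM in set-25, a change of 3.02 ± 0.27 (adjusted p = 1.44e-08). At I: 10631020-10632019 there were 77.0, 90.1 and 84.8 CPM in the double mutant and 11.2, 10.9 and 11.6 CPM in set-25, a change of 2.90 ± 0.15 (adjusted p = 7.84e-13). Both windows were near the set-25 level in nrde-3, at 5.18 ± 1.78 and 10.5 ± 0.503 CPM, and in N2, at 4.13 ± 0.293 and 8.50 ± 0.849 CPM (SD, n = 3 each). The met-2 libraries held 123 ± 9.13 and 259 ± 6.73 CPM, more than set-25;nrde-3. Libraries labelled met-2;nrde-3 held 11.3 ± 6.86 and 13.1 ± 3.99 CPM, less than set-25;nrde-3.

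**Figure D3:**
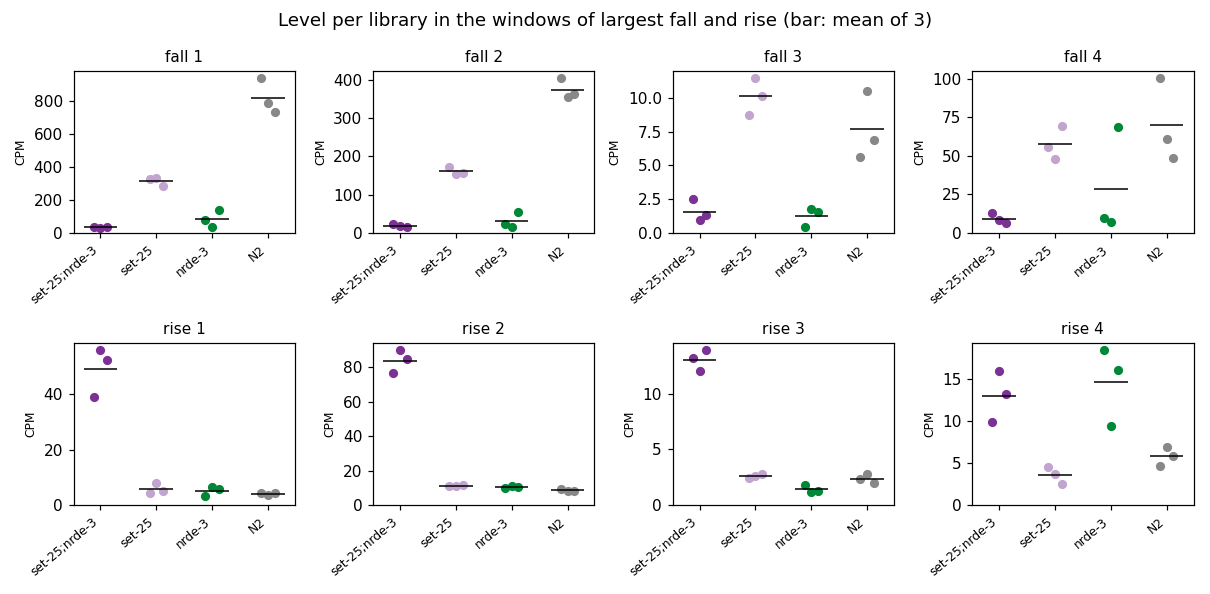
CPM in every library of set-25;nrde-3, set-25, nrde-3 and N2 (points, with a bar for the mean of 3) in the windows of largest fall (top row, in order II: 311017, II: 2996017, I: 7152001 and I: 4684001) and largest rise (bottom row, I: 10630020, I: 10631020, I: 11814020 and II: 5070016). In all 8 panels the set-25;nrde-3 points lie apart from the set-25 points. In the first 3 falls the nrde-3 points also lie below the N2 points, and in the rise at II: 5070016 they lie above them.

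Most other large rises were at low levels. A neighbouring pair at I: 11814020-11815019 and I: 11813020-11814019 changed by 2.31 ± 0.58 and 1.72 ± 0.50 (adjusted p = 0.0152 and 0.0402), and neither call held without set-25 replicate 1, 2 or 3 or without set-25;nrde-3 replicate 3, nor that of I: 11813020-11814019 without set-25;nrde-3 replicate 1. Library totals (adjusted p = 0.147) and totals outside the right end (adjusted p = 0.0509) also ended the call of I: 11813020-11814019. At II: 5070016-5071015 and II: 4192017-4193016 the double mutant held 13.04 ± 3.06 and 15.4 ± 4.28 CPM and set-25 held 3.54 ± 1.05 and 4.42 ± 0.123 CPM, with changes of 1.89 ± 0.39 and 1.80 ± 0.34. Called rises at II: 2646017-2647016, II: 2481017-2482016, II: 1274017-1275016 and I: 10036020-10037019 measured 1.77 ± 0.30, 1.76 ± 0.30, 1.62 ± 0.21 and 1.60 ± 0.30. A further rise, of 1.55 ± 0.43 at I: 14183020-14184019 (adjusted p = 0.0272), kept its call without set-25 replicate 2 but lost it without any other of the 6 libraries and with library totals (adjusted p = 0.162).

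The abundant rises named were smaller. At I: 9170001-9171000 there were 240, 286 and 263 CPM in set-25;nrde-3 and 115, 137 and 104 CPM in set-25, a change of 1.15 ± 0.11 (adjusted p = 8.87e-08). Rises of 1.10 ± 0.15, 1.01 ± 0.15 and 1.19 ± 0.14 were measured at II: 1710017-1711016, II: 1000017-1001016 and II: 4171017-4172016, the second of which missed the threshold with library totals (adjusted p = 0.0521). Rising windows formed 79 runs that held 199 of the 405. The longest, of 6 windows each, lay at I from 11169020 to 11175019 and at I from 10266020 to 10272019. Summed over the first run there were 698, 739 and 744 CPM in the double mutant and 406, 410 and 398 CPM in set-25. In the second there were 3425, 3274 and 3118 CPM and 2231, 1997 and 1874 CPM in the same order of genotypes, and the 3 libraries of each genotype did not overlap in either run. A run of 5 at II from 1142017 to 1147016 held 211, 214 and 197 CPM in the double mutant and 99.8, 92.9 and 94.7 CPM in set-25.

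The comparison of nrde-3 with N2 measures the same loss where set-25 is intact and shares no library with the comparison above, though all 18 libraries gave one estimate of spread. In it 181 windows were lower (1.69%) and 241 higher (2.25%), the higher ones numbering 108 without N2 replicate 1 and 152 without nrde-3 replicate 1 or replicate 2. The balance here turned with the scale as well, with 203 lower and 38 higher by library totals (median of all windows -0.29) and 151 lower and 474 higher by totals outside the right end (median 0.12), and the overlaps that follow rest on the lists of 181 and 241. Of the 205 windows lower in the double mutant, 72 (35.1%) were lower in nrde-3 too, 5 were higher and 128 were not called. These 72 were 39.8% of the 181 windows lower in nrde-3. Of the 405 higher windows, 65 (16.05%) were also higher in nrde-3, 14 were lower (3.46%, beside 1.69% of all windows) and 326 were not called. These 65 were 27.0% of the 241 windows higher in nrde-3. The median log2 change of nrde-3 over N2 was -0.35 over the 205 windows and 0.19 over the 405, against 0.00 over all windows tested. That change was below 0 in 167 of the 205 and above 0 in 309 of the 405, beside 5365 below and 5364 above 0 among all 10730 windows.

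**Figure D4:**
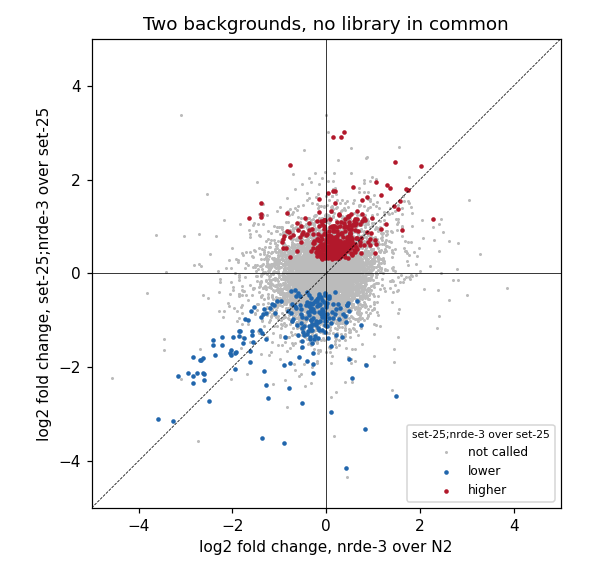
Log2 fold change of nrde-3 over N2 (horizontal) against that of set-25;nrde-3 over set-25 (vertical) for each 1-kb window tested, with a dashed line of equality. Windows lower in the double mutant (blue) extend in a tail toward the lower left, and 72 of 205 were called lower in both comparisons. Of the 205, 167 had a change below 0 in nrde-3 over N2 and 38 a change above 0.

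The largest falls named were shared with nrde-3 over N2. The window at II: 311017-312016 held 78.1, 36.9 and 138 CPM in nrde-3 and 937, 788 and 729 CPM in N2, a change of -3.28 ± 0.26, and that at II: 2996017-2997016 changed by -3.58 ± 0.25. In both, set-25 libraries already held less than N2 libraries, so similar ratios came from different starting levels. The 5-window run at I from 13408020 to 13413019 followed the same order, with 1718, 1738 and 1674 CPM in set-25;nrde-3, 3359, 3354 and 3040 CPM in set-25, 2227, 1854 and 2681 CPM in nrde-3 and 7130, 6450 and 6178 CPM in N2, and all 5 of its windows fell in nrde-3. Among rises, all 6 windows of the run at I from 10266020 and all 5 of the run at II from 1142017 also rose in nrde-3. At II: 311017-312016 and II: 2996017-2997016 the libraries labelled met-2;nrde-3 held 412 ± 92.1 and 253 ± 58.6 CPM (SD, n = 3 each). The set-25 means there were 314 and 161 CPM. Met-2 libraries held 18.2 ± 2.87 and 10.1 ± 2.28 CPM, beside means of 35.5 and 18.8 CPM in set-25;nrde-3. A low level in these windows thus did not go with the nrde-3 label in every strain.

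Other falls had no called counterpart in the wild-type background. The run at I from 842001 to 847000 held 125, 122 and 103 CPM in set-25;nrde-3 and 330, 322 and 292 CPM in set-25, while nrde-3 had 230, 247 and 255 CPM and N2 had 292, 308 and 284 CPM, with none of the 5 windows called. The run at II from 1255017 to 1259016 held 245, 141 and 170 CPM in the double mutant and 477, 455 and 419 CPM in set-25, beside 255, 221 and 391 CPM in nrde-3 and 411, 393 and 412 CPM in N2. Its nrde-3 libraries were spread widely, and no window of it was called there. Absence of a call does not show that a window was unchanged, and the difference between backgrounds was tested directly.

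That test, the change of set-25;nrde-3 over set-25 minus the change of nrde-3 over N2, called 95 windows above 0 (0.885%) and 48 below 0 (0.447%). Of the 95, 51 fell in nrde-3 and 54 rose in the double mutant, with 14 called in opposite directions in the 2 comparisons. Of the 48, 32 were higher in nrde-3 and 19 lower in set-25;nrde-3, with 5 opposite. Among all windows tested, 1.69% were lower and 2.25% higher in nrde-3, and 1.91% were lower and 3.77% higher in set-25;nrde-3. Since the test takes the difference of the 2 changes, these directions follow in part from the selection and are only a description. The balance turned with the scale: with totals taken outside the right end of chromosome I, 61 windows were above 0 and 118 below, the median of all windows being -0.18, and with library totals 41 and 10.

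A pair of adjoining windows changed in opposite directions in the 2 backgrounds. At II: 4171017-4172016 there were 96.8, 109 and 118 CPM in set-25;nrde-3 and 49.9, 46.3 and 45.4 CPM in set-25, beside 26.2, 32.2 and 26.6 CPM in nrde-3 and 89.6, 65.9 and 70.6 CPM in N2. Changes there were 1.19 ± 0.14 in the set-25 and -1.40 ± 0.15 in the wild-type background. The window after it, II: 4172017-4173016, changed by 1.5 ± 0.28 and -1.40 ± 0.29. At I: 11902020-11903019 the set-25 libraries alone were high, with 114, 118 and 98.4 CPM. Set-25;nrde-3 had 22.7, 34.4 and 27.5 CPM, nrde-3 had 20.3, 25.4 and 31.3 CPM and N2 had 16.4, 15.4 and 11.3 CPM.

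The size of the loss was also read as a share of all reads. Outside the right end of chromosome I, 203 lower windows held 4.76%, 4.24% and 4.27% of reads in set-25;nrde-3 and 9.84%, 10.1% and 9.50% in set-25. The 405 higher windows held 20.8%, 21.9% and 21.6% in set-25;nrde-3 and 15.9%, 16.1% and 16.3% in set-25. These windows were chosen by this same difference, so the shares describe its size and test nothing. In strains that took no part in the choice, the lower windows held 5.46%, 4.48% and 7.24% in nrde-3, 5.39%, 5.30% and 5.37% in met-2 and 15.7%, 14.4% and 13.7% in N2. By this share the nrde-3 libraries overlapped the double mutant, while N2 libraries lay above set-25. Neither held when the 205 lower windows counted equally, as mean log2 of CPM + 1 relative to the N2 mean. Set-25 then stood at 0.0219, 0.0389 and -0.0478, nrde-3 at -0.723, -0.840 and -0.484, and set-25;nrde-3 at -0.994, -1.13 and -1.15. Met-2 stood lowest, at -1.24, -1.25 and -1.30, and met-2;nrde-3 stood at -0.0980, -0.232 and -0.152. By share of reads, the libraries labelled met-2;nrde-3 held 12.6%, 9.99% and 11.1% in the lower windows. All 3 thus lay above every nrde-3 and every met-2 library, against what the nrde-3 libraries show for the loss they are labelled with. This includes replicate 3, which had reads in 14.4% of bins and did not stand apart in that measure.

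**Figure D5:**
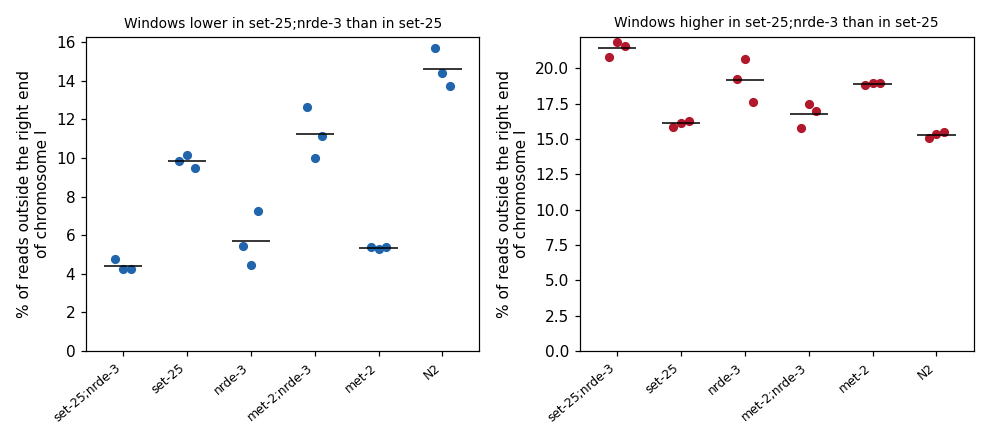
Percent of each library's reads outside the right end of chromosome I that fell in windows called lower (left, 203 windows) or higher (right, 405 windows) in the double mutant against set-25, for all 6 strains (points, with a bar for the mean of 3). The lower windows hold 4.24% to 4.76% in set-25;nrde-3, 9.50% to 10.1% in set-25 and 13.7% to 15.7% in N2.

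The right end of chromosome I, its last 13 kb, lies at the ribosomal RNA gene array. It held 68.8%, 58.9% and 56.3% of reads in set-25;nrde-3 and 60.5%, 52.8% and 59.0% in set-25. The groups overlapped (difference 3.85 percentage points, exact two-sided permutation p = 0.6, adjusted p = 0.6 over 3 shares), and 0.1 is the smallest p that 3 against 3 allows. Of its 13 windows none was called higher and 2 were lower, the last 2 before the end of the chromosome, with changes of -0.53 ± 0.12 and -0.72 ± 0.18. Chromosome II held 9.74%, 12.6% and 13.5% of reads in the double mutant and 13.04%, 15.7% and 13.5% in set-25 (exact permutation p = 0.2, adjusted p = 0.45). With the right end left out of the totals the groups parted, with 31.2%, 30.7% and 30.8% on chromosome II in set-25;nrde-3 and 33.0%, 33.4% and 33.0% in set-25 (exact permutation p = 0.1, unadjusted). Bins with a read made up 13.3% ± 1.03 in set-25;nrde-3 and 14.7% ± 1.46 in set-25 (exact permutation p = 0.3, adjusted p = 0.45).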

How the data were processed

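The authors deposited whole-number read counts per 20-bp bin, both strands together. Per the labels' protocols, total small RNA was treated with TAP so that every kind of small RNA could enter the library, and sequenced as single-end 50-base reads. Per the series' design text, adapters were clipped and reads collapsed with the FASTX-Toolkit and mapped with QuasR to WS220, given as ce10 in the submitters' processing notes, with versions not given in the sources used here. Division by total reads and selection by length are also described, but whole counts of unequal totals show neither. The annotation at hand was of another build, so no gene names were used. No value column was left unused.

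All 18 libraries were fitted together with one coefficient per strain in edgeR 4.0.16 (R 4.3.3). Low features were removed with filterByExpr (min.count 10). Libraries were scaled with TMM factors on totals of the table, and features were tested by glmQLFTest with Benjamini-Hochberg adjustment over all features and a threshold of 0.05. SE is the log2 change divided by the square root of F. Windows group bins by their start on a 1000-bp grid, and the fit was checked on simulated counts. The naming rule took the 12 largest rises and falls and the 4 most abundant of each with at least 2-fold change among called windows whose libraries did not overlap and whose higher mean exceeded the median. It also took the longest runs, and the 4 largest values of the interaction in each direction. The comparison, lists and rules were chosen with earlier results of these data known. Alternatives used RLE factors, library totals, DESeq2 1.42.0, voom weights (limma 3.58.1), other filters, grids and sets of libraries, and a replicate block. Totals outside the right end were added after seeing the data. Shares were compared by exact permutation. Libraries of one strain were not duplicates, since every pair differed by more than sampling noise.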

Additional observations from a re-analysis of the deposited data

Results flagged for a closer look

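Named windows are given here where the change of set-25;nrde-3 over set-25 differed from that of nrde-3 over N2 by the interaction test of edgeR, with the interaction as log2 ± SE. The adjoining windows with the largest rises had values of 2.63 ± 0.45 (I: 10630020-10631019, adjusted p = 8.68e-04) and 2.58 ± 0.25 (I: 10631020-10632019, adjusted p = 1.29e-07). Rises at I: 10036020-10037019 and II: 2481017-2482016 had 1.74 ± 0.43 and 1.57 ± 0.41, close to the threshold (adjusted p = 0.0364 and 0.0489). Windows of opposite change at II: 4171017-4172016 and II: 4172017-4173016 had 2.59 ± 0.21 and 2.90 ± 0.40 (adjusted p = 9.32e-09 and 6.59e-05).

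At I: 7895001-7896000 and I: 7894001-7895000 the interaction was 3.44 ± 0.35 and 2.92 ± 0.27, where nrde-3 alone was low among these 4 strains: set-25;nrde-3 held 34.0 ± 4.54 and 55.3 ± 9.81 CPM, set-25 held 33.1 ± 2.87 and 48.3 ± 5.26 CPM, nrde-3 held 3.22 ± 1.14 and 7.72 ± 1.87 CPM and N2 held 33.0 ± 1.20 and 50.4 ± 5.17 CPM (SD, n = 3 each). At I: 304001-305000 it was 3.39 ± 0.52, with 8.24 ± 1.63 CPM in set-25;nrde-3, 11.1 ± 5.54 CPM in set-25, 2.12 ± 0.823 CPM in nrde-3 and 29.4 ± 8.24 CPM in N2. In these 3 windows, in the order given, met-2 means were also low, at 1.30, 0.548 and 2.74 CPM. Means of met-2;nrde-3 were 29.6, 53.4 and 29.3 CPM. A shared fall at I: 10913020-10914019 was smaller in the set-25 background, with 0.97 ± 0.24 (adjusted p = 0.0399).

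Values below 0 were -2.81 ± 0.29 at I: 11902020-11903019, -1.94 ± 0.23 at I: 2777001-2778000 and -1.91 ± 0.25 at I: 2776001-2777000. At II: 2006017-2007016 the value was -4.17 ± 0.79 (adjusted p = 0.00279), where nrde-3 held 31.1, 31.9 and 24.8 CPM and all libraries of set-25;nrde-3, set-25 and N2 held at most 2.30 CPM. Without set-25 replicate 2 it missed the threshold at -3.78 (adjusted p = 0.0669). A shared rise at I: 9170001-9171000 was smaller in the set-25 background, with -1.13 ± 0.16 (adjusted p = 6.49e-05).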

How the results depend on the processing

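No window called in set-25;nrde-3 over set-25 was called in the other direction under any alternative run on the same grid of windows. Of 534 values of 32 named windows, 515 stayed past the threshold and 19, of 4 windows (I: 11814020, I: 11813020, I: 14183020 and II: 1000017), missed it with the same sign. Counts moved more, and the cause was not tested. In the order higher and lower windows of set-25;nrde-3 over set-25, higher and lower bins, interaction above and below 0, and windows higher and lower in nrde-3 than in N2, voom with quality weights gave 760, 364, 444, 853, 251, 130 and 461 (the last count, of windows lower in nrde-3, moved by less than 1.5 times). Fits of only the groups compared gave 363 lower windows, 262 and 803 bins, 177 and 103 interactions, and 372 and 272 windows in nrde-3 against N2. Without met-2;nrde-3 replicates 1 and 2 there were 686 higher windows, 255 higher bins, 207 and 90 interactions and 366 windows higher in nrde-3. Library totals gave 26 higher windows, 27 higher bins, 41 and 10 interactions and 38 windows higher in nrde-3. Totals outside the right end, chosen after seeing the data, gave 253 higher windows, 61 and 118 interactions and 474 windows higher in nrde-3. DESeq2 gave 188 higher bins, no filter 298 lower bins, and 5-kb windows 115 lower in nrde-3. With 1 library left out, higher windows ranged from 216 to 365, lower windows from 112 to 186, higher bins from 18 to 60, lower bins from 264 to 385, interactions from 67 to 117 above and 32 to 50 below 0, and windows in nrde-3 against N2 from 108 to 200 higher and 127 to 160 lower. Differences in share ranged from 0.141 to 6.36 percentage points at the right end, -2.92 to -1.07 on chromosome II and -2.06 to -0.603 for bins with a read. With a replicate block 362 windows were higher and 178 lower, with 63 and 420 bins, 79 and 47 interactions, and 221 and 179 windows in nrde-3 against N2, and among named windows the block ended the call of I: 11813020-11814019 (adjusted p = 0.0545). Deviations of same-numbered set-25;nrde-3 and set-25 libraries correlated by 0.0164 to 0.0688, under the 0.1 set for pairing, and set-25;nrde-3 replicate 2 correlated best with another number. Shallow windows limit detection: of the 2683 windows of lowest level, 8 were called lower and 1 higher.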

Other observations

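The bins of largest change by the naming rule included 3 within 100 bp of each other where set-25 alone was nearly empty. At I: 4466741-4466760 there were 13.8, 25.2 and 26.7 CPM in set-25;nrde-3 and 0, 0.270 and 1.30 CPM in set-25, beside 27.3, 34.7 and 29.6 CPM in nrde-3 and 46.4, 28.2 and 39.3 CPM in N2. The bins at I: 4466761-4466780 and I: 4466821-4466840 held 100 and 48 reads over the double mutant libraries and 1 and 0 over the set-25 libraries. The reverse was seen at I: 1978141-1978160, with 0 reads in the double mutant libraries and 79 in the set-25 libraries, and the set-25 libraries had 4.36, 7.57 and 12.6 CPM, while N2 held 0, 0.175 and 0 CPM. At I: 11900060-11900079 there were 0 reads in the double mutant libraries and 52 in the set-25 libraries.

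Over 6 strain means of log2 CPM, the windows most like II: 311017-312016 were I: 11824020-11825019, II: 2996017-2997016 and II: 3374017-3375016 (Pearson r 0.995, 0.992 and 0.992, as a description). The first of them held 176 CPM in set-25;nrde-3 and 544 CPM in set-25 on average, a change of -1.63 ± 0.18.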
